A study of Homo sapiens with 15 samples.

Results

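The 10 genes of the early growth response and its surroundings were followed in BEAS-2B, an immortalized line derived from human bronchial epithelium, exposed to PM2.5, the fine particles of polluted air. They were chosen by name as the rows of the count table that carry the symbols EGR1, EGR2, EGR3, EGR4, NAB1, NAB2, IER2, IER3, SRF and MYC, and all 10 had a row among the 58219 genes counted. Of these, 8 passed edgeR's filter on low counts and were tested with 17599 genes in all, and EGR3 and EGR4 were too rarely sequenced to be tested. RNA was sequenced from 15 libraries in 5 groups of 3 independent experiments. In the 24-h protocol, cells received medium without particles (24-h control), or particles at 1 µg/cm2 or 30 µg/cm2 in a single dose, and were left for 24 h. In the repeated protocol, cells were plated at a lower density, washed daily, and received medium alone (7-d control) or a daily dose of 1 µg/cm2. The labels give 7 days of exposure and the study's methods give a day fewer. All groups shared the serum-free, growth factor-supplemented medium and the collagen coating, and the particles were a water extract of filters from Beijing, so that a single cell line and a single particle source were studied.

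Immediate early genes are transcribed within minutes of a growth signal, a stress or an injury, from transcription factors that the cell already holds. In the best described route, the ERK kinases phosphorylate ELK factors that sit with serum response factor (SRF) on CArG boxes in the promoters of EGR and FOS family genes. EGR1 to EGR4 are zinc finger transcription factors, and NAB1 and NAB2 are corepressors that bind EGR1, EGR2 and EGR3 and limit them. NAB2 is itself a target of EGR factors, which closes a feedback loop. IER2 and IER3 are small nuclear and cytoplasmic response proteins, IER3 being tied to cell survival, and MYC is a transcription factor of growth and ribosome production. In airway epithelium, EGR1 is known for its rise after oxidants, smoke and wounding.

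Promoters of 4 of the genes that the comparisons below turn on are shown first, since they hold the sites by which this family is known to be read. RefSeq windows of build GRCh38.p14 were found for 7 of the 10 genes, in 12 entries, and the 250 bases before the start were searched on both strands for the CArG box (the SRF site), GCGNGGGCG (an EGR site), TGACG (the core of a cyclic AMP response element) and CCGGAA (an Ets core as ELK factors read). A CArG box was held by 1.16% of 35116 windows of the same length, GCGNGGGCG by 8.41%, TGACG by 21.2% and CCGGAA by 14.5%. The window of EGR1 lies at chr5:138465229-138465478 on the plus strand, that of EGR2 at chr10:62816367-62816616 on the minus strand, that of SRF at chr6:43171019-43171268 on the plus strand and that of NAB2 at chr12:57088864-57089113 on the plus strand, and each is printed 5′ to 3′ along its gene. Capitals mark the CArG boxes in EGR1, EGR2 and SRF, and GCGNGGGCG in NAB2.
EGR1: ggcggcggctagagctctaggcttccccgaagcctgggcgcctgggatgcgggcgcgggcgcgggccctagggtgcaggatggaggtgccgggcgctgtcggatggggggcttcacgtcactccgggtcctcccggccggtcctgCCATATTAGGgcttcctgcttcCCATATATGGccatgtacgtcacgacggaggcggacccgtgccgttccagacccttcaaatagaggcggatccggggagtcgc
EGR2: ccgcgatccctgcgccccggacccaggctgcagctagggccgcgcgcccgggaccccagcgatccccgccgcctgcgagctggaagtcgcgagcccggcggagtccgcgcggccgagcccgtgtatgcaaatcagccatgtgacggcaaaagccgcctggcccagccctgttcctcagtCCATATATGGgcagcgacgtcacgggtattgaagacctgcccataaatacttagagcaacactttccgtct
SRF: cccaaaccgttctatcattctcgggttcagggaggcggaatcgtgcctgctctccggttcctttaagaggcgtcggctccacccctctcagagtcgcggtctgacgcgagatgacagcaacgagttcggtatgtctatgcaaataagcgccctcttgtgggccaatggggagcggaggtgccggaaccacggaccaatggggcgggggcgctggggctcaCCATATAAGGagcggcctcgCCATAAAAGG
NAB2: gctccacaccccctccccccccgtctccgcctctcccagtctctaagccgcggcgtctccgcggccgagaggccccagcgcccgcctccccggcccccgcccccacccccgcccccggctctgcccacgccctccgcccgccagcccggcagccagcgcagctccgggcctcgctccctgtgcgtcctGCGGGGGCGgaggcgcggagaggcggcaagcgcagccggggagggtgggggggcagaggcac
The EGR1 window held 2 CArG boxes, 2 copies of TGACG and 1 of GCGNGGGCG. The SRF window shown, 1 of 2 entries, held 2 CArG boxes and 1 copy each of TGACG and CCGGAA. In EGR2, 1 of 3 windows held a CArG box, with 2 copies of TGACG, and the IER2 window held 1 copy each of TGACG and CCGGAA. GCGNGGGCG is not particular to NAB2, which held 1 copy, since 2 of 3 windows of NAB1 held 2 and 3 copies and the SRF window held 1. No CArG box was found in the windows of EGR4, NAB1, NAB2 and IER2, which says only that these letters are not there.

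Between 21460981 and 34724765 reads were counted per library. Levels are given as CPM, each gene's share of the counts of all tested genes on a scale of 1e6, with edgeR's TMM factors that correct for library composition, and 3 counts in a library, taken as the floor of detection, equal 0.0866 to 0.149 CPM. Experiments are numbered by the replicate numbers of the labels, which were taken to pair libraries. The 24-h libraries of experiment 2 stood apart from those of experiments 1 and 3. Within a group, counts of experiment 2 differed from the others by 77.2 to 183 times what counting error gives (chi-square per degree of freedom), against 4.47 to 18.3 between experiments 1 and 3, so folds by experiment are given for the members that the 24-h results turn on. Among the daily-exposure libraries, that of experiment 3 differed from those of experiments 1 and 2 by 25.8 and 19.9. The latter differed from each other by 4.72. The markers that define epithelial cells were present in every library, KRT7 at 552 to 1928 CPM and EPCAM at 29.4 to 99.2 CPM. SCGB1A1 and LYZ, markers of secretory cells and of leukocytes, were at 0 in every library. Other markers of their lists were not, with MUC5AC at up to 0.394 CPM and CD3E at up to 0.231 CPM. The summed level of 6 epithelial markers was lower at 30 µg/cm2 (1448 to 2449 CPM) than in 24-h controls (2894 to 3389 CPM), with 4 of the 6 called lower. That of 4 airway basal markers was also lower there (324 to 441 against 942 to 1197 CPM), with 1 of 4 called. In that comparison 8.07% of all tested genes were called. After daily exposure, both sums were again below those of the 7-d controls (1373 to 1742 against 2136 to 2443 CPM, and 917 to 1268 against 1408 to 1856 CPM). There 0 of 6 epithelial and 2 of 4 airway basal markers were called, the 2 of them lower, beside 0.227% of all tested genes. Summed ciliated and secretory markers were at 0.383 to 0.526 CPM at 30 µg/cm2 and at 0 to 0.177 CPM in the 24-h controls, and summed leukocyte and endothelial markers reached at most 0.345 CPM in any library. Summed fibroblast markers, by contrast, were at 52.0 to 120 CPM over all libraries. Summed mesenchymal markers (VIM and CDH2) were at 148 to 218 CPM after daily exposure and 226 to 248 CPM in its controls. They were higher at 24 h, at 414 to 672 CPM in controls and 329 to 652 CPM at 1 µg/cm2. At 30 µg/cm2 they were at 301 to 478 CPM. Between the controls both markers were called lower at 7 d, beside 10.8% of all tested genes. The part of these shifts in the values below was not tested.

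**Figure D1:**
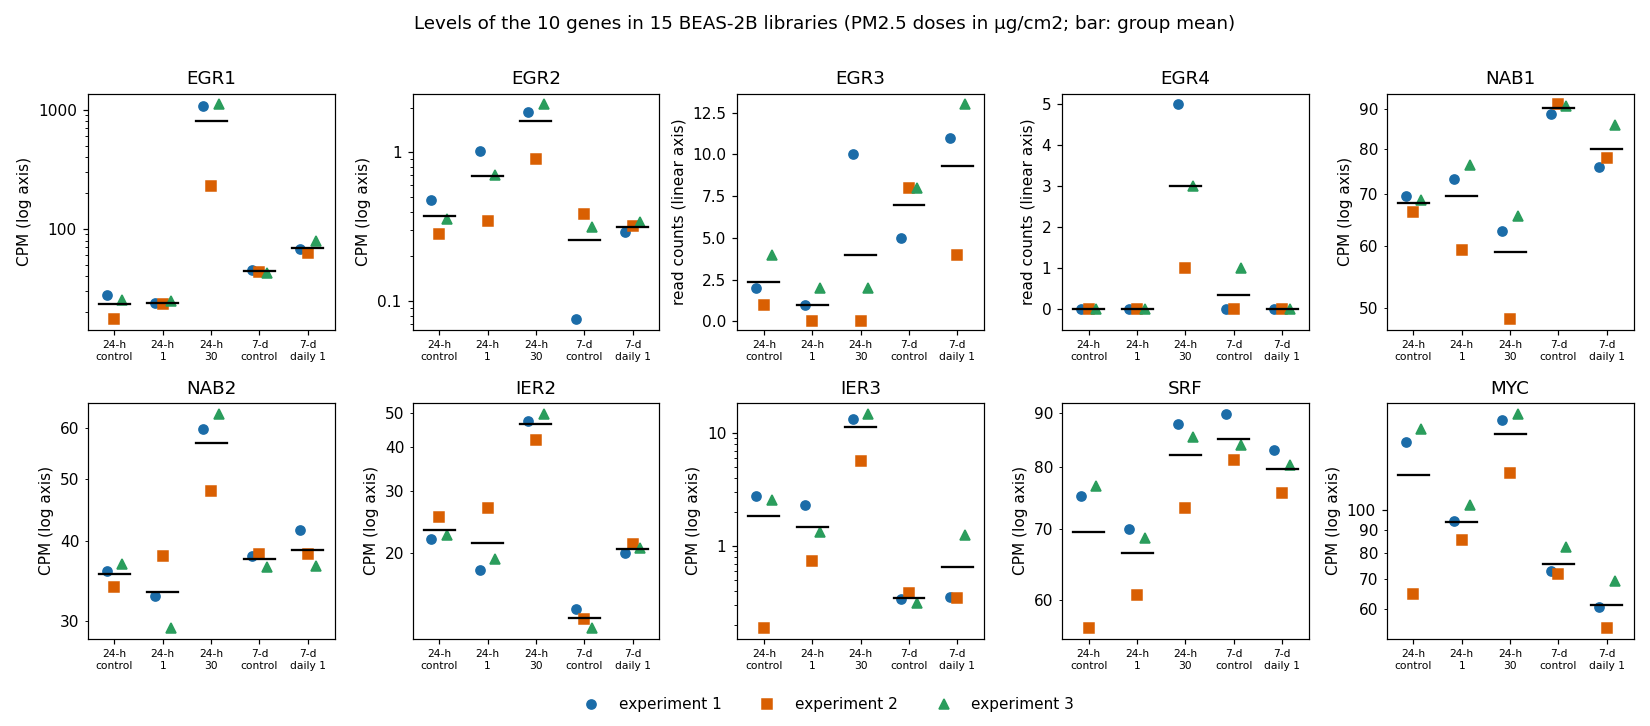
Levels of the 10 genes in each library, by group (horizontal axis, with PM2.5 doses in µg/cm2) and experiment (symbols), in CPM on a log axis, or in read counts on a linear axis for EGR3 and EGR4. Bars are group means of 3 libraries. EGR1 at 30 µg/cm2 lies between 230 and 1112 CPM, above the 12 other libraries.

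EGR1 was the member that rose most after a single 30 µg/cm2. EGR1 (ENSG00000120738.7, GRCh38, chr5:138465490-138469315, plus strand), the founding EGR factor, was at 27.9, 17.6 and 25.4 CPM in the 24-h controls of experiments 1, 2 and 3. It was at 1072, 230 and 1112 CPM after 30 µg/cm2. The groups did not overlap, and the library of experiment 2 was the lowest in both of them. The fitted log2 fold-change was 5.09 (SE 0.46, 95% interval 4.09 to 6.08, adjusted p = 2.4e-05 from edgeR's quasi-likelihood test with Benjamini-Hochberg adjustment), a 34.0-fold rise, the 12th largest change in size among the 17599 genes tested. Within experiments, EGR1 rose 38.4-fold, 13.1-fold and 43.7-fold. At 1 µg/cm2 for 24 h, EGR1 was at 23.8, 23.3 and 25.0 CPM, inside the range of its controls, with a log2 fold-change of 0.02 (95% interval -0.83 to 0.87). Its share of all counted reads was 0.0017% to 0.0027% in the 24-h controls and 0.107%, 0.0203% and 0.108% after 30 µg/cm2. Ranked by CPM per kilobase of gene length, EGR1 moved from places 5503 to 7092 in the controls to places 54, 687 and 55. Since these are bulk libraries, a rise in a few cells and a smaller rise in all cells cannot be told apart.

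EGR2 rose with EGR1 but stayed a rarely sequenced gene. EGR2 (ENSG00000122877.15, chr10:62811996-62919900, minus strand), known for its role in peripheral myelin and in lymphocytes, had 16, 6 and 10 counts in the 24-h controls, or 0.482, 0.283 and 0.354 CPM. At 30 µg/cm2 it had 57, 26 and 44 counts, or 1.87, 0.902 and 2.11 CPM. All 3 treated libraries were above all controls, and EGR2 rose by 2.08 on the log2 scale (SE 0.49, adjusted p = 0.015, same edgeR test). At 1 µg/cm2, EGR2 was at 1.02, 0.347 and 0.702 CPM, between the other groups in its mean and overlapping both, with a log2 fold-change of 0.88 (95% interval -0.20 to 1.96, adjusted p = 1). By experiment EGR2 rose 3.89-fold, 3.19-fold and 5.95-fold at 30 µg/cm2. The fitted rise at 30 µg/cm2 was 4.24-fold, and the interval at 1 µg/cm2 reaches from a small fall to nearly that size.

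EGR3 and EGR4 were close to the floor. EGR3 (ENSG00000179388.8, chr8:22687659-22693302, minus strand) had 2, 1 and 4 counts in the 24-h controls, 1, 0 and 2 at 1 µg/cm2 and 10, 0 and 2 at 30 µg/cm2. It had 5, 8 and 8 counts in the 7-d controls and 11, 4 and 13 after daily exposure. The 24-h groups overlapped in EGR3 and so did the 7-d groups. EGR4 (ENSG00000135625.7, chr2:73290929-73293705, minus strand) had 5, 1 and 3 counts at 30 µg/cm2, 1 count in 7-d control 3, and 0 in each of the other 11 libraries, where a count of 0 allows up to 0.149 CPM (3 counts, counting error only). Without the filter on low counts, EGR4 had an adjusted p of 0.21 and EGR3 of 0.78 for 30 µg/cm2 against control, so neither was called.

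NAB2 rose at 30 µg/cm2, and NAB1 was not called. NAB2 (ENSG00000166886.12, chr12:57088894-57095476, plus strand) was at 35.9, 34.0 and 36.8 CPM in the 24-h controls and at 59.7, 47.8 and 63.1 CPM at 30 µg/cm2. The groups did not overlap, and experiment 2 was again the lowest. The log2 fold-change of NAB2 was 0.68 (SE 0.13, adjusted p = 0.0039, same edgeR test), 1.66-fold, 1.41-fold and 1.71-fold by experiment. At 1 µg/cm2, NAB2 was at 32.8, 37.9 and 29.3 CPM, around its controls. NAB2 overlaps STAT6 on the opposite strand, which held 52214 counts over all libraries, and how the reads were assigned to strands is not given in the sources used here. NAB1 (ENSG00000138386.16, chr2:190646746-190692766, plus strand) was at 69.7, 66.4 and 68.8 CPM in the 24-h controls and 62.8, 48.4 and 65.7 CPM at 30 µg/cm2. All 3 treated libraries were below all controls, but the log2 fold-change of -0.21 (95% interval -0.49 to 0.06, adjusted p = 0.36) was not called. NAB1 at 1 µg/cm2 was at 73.3, 59.4 and 76.4 CPM, on both sides of its controls. In the 24-h controls NAB1 stood above NAB2 per length of gene (14.0 ± 0.35 against 11.8 ± 0.48 CPM per kilobase, SD, n = 3), and at 30 µg/cm2 NAB2 stood above NAB1 in every library (15.9 or more against 13.4 or less).

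IER2 and IER3 both rose at 30 µg/cm2, IER3 from a much lower level. IER2 (ENSG00000160888.6, chr19:13150415-13154908, plus strand) was at 22.0, 25.4 and 22.6 CPM in the 24-h controls, 18.0, 26.8 and 19.3 CPM at 1 µg/cm2 and 47.4, 41.9 and 49.7 CPM at 30 µg/cm2. The libraries at 30 µg/cm2 were above the other 6, and the log2 fold-change against control was 0.99 (SE 0.14, adjusted p = 0.00069, same edgeR test), a 1.99-fold rise. By experiment IER2 rose 2.15-fold, 1.65-fold and 2.20-fold, the least in experiment 2. IER3 (ENSG00000137331.11, chr6:30743199-30744554, minus strand) was at 2.77, 0.188 and 2.55 CPM in the 24-h controls, the value of experiment 2 resting on 4 counts. It was at 2.31, 0.744 and 1.33 CPM at 1 µg/cm2 and at 13.3, 5.65 and 14.9 CPM at 30 µg/cm2. Every library at 30 µg/cm2 was above every other 24-h library, and IER3 rose by 2.59 on the log2 scale (SE 0.68, adjusted p = 0.026, same edgeR test). By experiment IER3 rose 4.81-fold, 30.0-fold and 5.86-fold, so that the experiment with the smallest rise of EGR1 had the largest rise of IER3, over a control near the floor.

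SRF and MYC were abundant and were not called at either dose. SRF (ENSG00000112658.7, chr6:43171299-43181507, plus strand) was at 75.1, 56.5 and 76.8 CPM in the 24-h controls, 70.0, 60.7 and 68.7 CPM at 1 µg/cm2 and 87.8, 73.2 and 85.4 CPM at 30 µg/cm2. SRF was higher at 30 µg/cm2 than in its own control in all 3 experiments (1.17-fold, 1.30-fold and 1.11-fold), but the groups overlapped and the log2 fold-change of 0.24 (95% interval -0.03 to 0.52, adjusted p = 0.28) was not called. MYC (ENSG00000136997.16, chr8:127735434-127741434, plus strand), the most abundant member per length in the 24-h controls, was at 143, 64.7 and 153 CPM there. It was at 94.7, 85.6 and 103 CPM at 1 µg/cm2 and at 160, 121 and 165 CPM at 30 µg/cm2. The spread of the MYC controls, from 64.7 to 153 CPM, covered all libraries at 1 µg/cm2 and 1 of 3 at 30 µg/cm2. MYC had a log2 fold-change of 0.31 (95% interval -0.21 to 0.83, adjusted p = 0.49) at 30 µg/cm2 and of -0.35 (95% interval -0.87 to 0.17, adjusted p = 1) at 1 µg/cm2. The direction at 1 µg/cm2 differed between experiments, with MYC at 0.664, 1.32 and 0.672 times its control in experiments 1, 2 and 3. Without the 24-h libraries of experiment 2, the log2 fold-change of MYC at 1 µg/cm2 was -0.57 (adjusted p = 0.0032), which stays under the fold threshold.

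**Figure D2:**
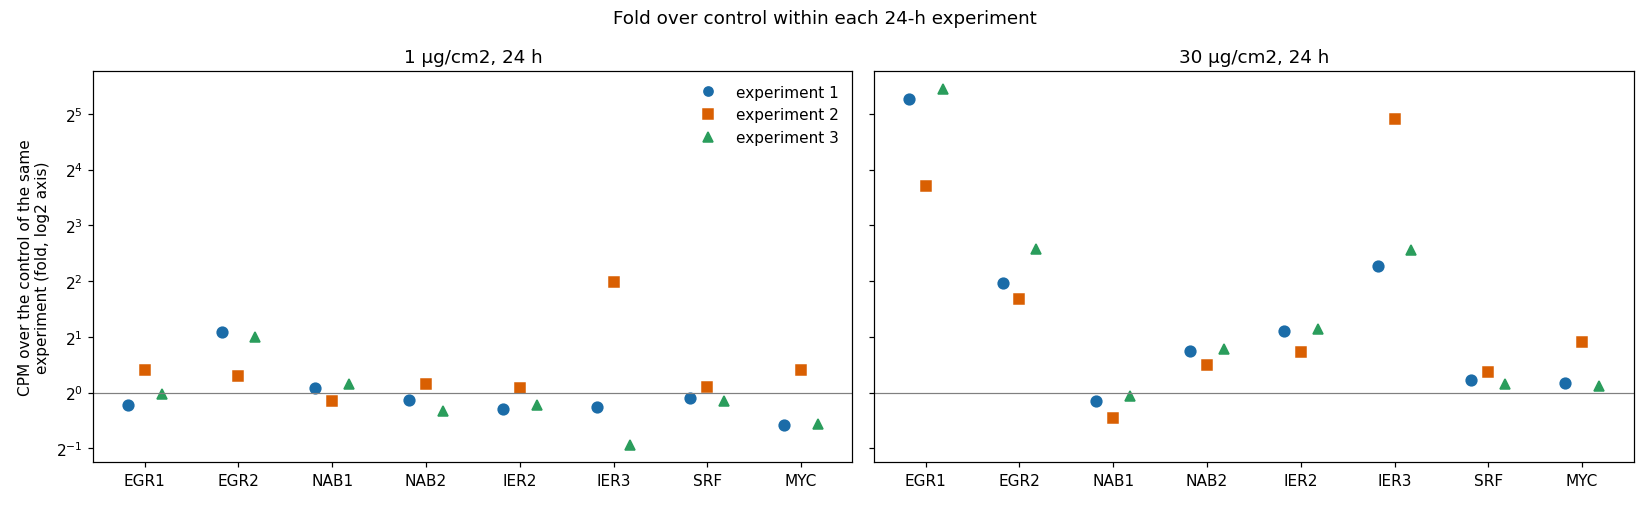
CPM at 1 µg/cm2 (left) and 30 µg/cm2 (right) over the control of the same 24-h experiment, as a fold on a log2 axis, for the 8 tested genes, with a symbol for each experiment. At 30 µg/cm2, EGR1, EGR2, NAB2, IER2 and IER3 lie above 1 in all 3 experiments, and experiment 2 has the smallest rise of EGR1 (13.1-fold) and the largest of IER3 (30.0-fold).

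In all, 5 of the 8 tested members were called at 30 µg/cm2 against control (adjusted p under 0.05 and a log2 fold-change of at least 0.6 in size), each of them higher, where 8.07% of all tested genes were called and 3.82% called higher. The same 5 did not overlap between groups, where 11.7% of tested genes lay wholly above their controls. NAB1 lay wholly below its controls, beside 11.1% of tested genes. The median log2 fold-change of the 8 tested members was 0.83, beside 0.03 over all tested genes. At 1 µg/cm2, 0 of 8 were called by edgeR, where 0.0625% of tested genes were called. There were 0 of 8 at an unadjusted p under 0.05, beside 3.03% of genes, and 0 called by DESeq2, beside 0.222%. With the replicate block, which compares libraries within experiments, the same members were called at 30 µg/cm2, with log2 fold-changes of 4.93 for EGR1 and 2.74 for IER3, in a fit that called 15.2% of genes. When the 6 libraries of this comparison were fitted without the other groups, EGR1 and IER2 remained called and EGR2 (adjusted p = 0.065), NAB2 (0.083) and IER3 (0.13) did not, with like fold-changes, in a fit that called 2.23% of genes. Leaving out 24-h control 3, or the library of experiment 1 or 3 at 30 µg/cm2, likewise ended the calls of EGR2 (adjusted p = 0.055, 0.061 and 0.068) and IER3 (0.054, 0.083 and 0.098), and leaving out the last brought NAB2 to a log2 fold-change of 0.596.

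Set against 1 µg/cm2 in place of the control, 30 µg/cm2 gave the same direction. EGR1 was higher by 5.06 on the log2 scale (SE 0.46, adjusted p = 5.1e-05), IER3 by 2.92 (SE 0.69, adjusted p = 0.016), IER2 by 1.12 (SE 0.15, adjusted p = 0.00045) and NAB2 by 0.77 (SE 0.13, adjusted p = 0.0020, all from edgeR's quasi-likelihood test). These were the 4 of 8 called, all higher, where 7.84% of tested genes were called and 3.62% called higher. EGR2 (1.20, adjusted p = 0.12), MYC (0.66, adjusted p = 0.11) and SRF (0.31, adjusted p = 0.16) were not called. MYC was higher at 30 than at 1 µg/cm2 in each experiment, 1.69-fold, 1.42-fold and 1.61-fold, and the groups did not overlap. SRF and the 4 called members did not overlap either, so that 6 of 8 lay wholly above, beside 11.5% of tested genes. With the replicate block, 6 of 8 were called, adding EGR2 (1.23, adjusted p = 0.012) and MYC (0.64, adjusted p = 0.0071), and 15.6% of tested genes were called in that fit. Both comparisons share the 30 µg/cm2 libraries, so they are not independent. Fitted on these 6 libraries alone, EGR1 was called (1 of 8), and NAB2 (adjusted p = 0.12), IER2 (0.066) and IER3 (0.062) were not, beside 0.918% of genes called. Leaving out the library of experiment 3 at 1 µg/cm2, or that of experiment 1 or 3 at 30 µg/cm2, ended the call of IER3 (adjusted p = 0.062, 0.057 and 0.065), and leaving out that of experiment 2 at 30 µg/cm2 added EGR2 (1.48, adjusted p = 0.034), beside 15% of genes called. Without all 24-h libraries of experiment 2, 6 of 8 were called, adding EGR2 (adjusted p = 0.028) and MYC (adjusted p = 6.5e-05), beside 17.3% of genes.

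**Figure D3:**
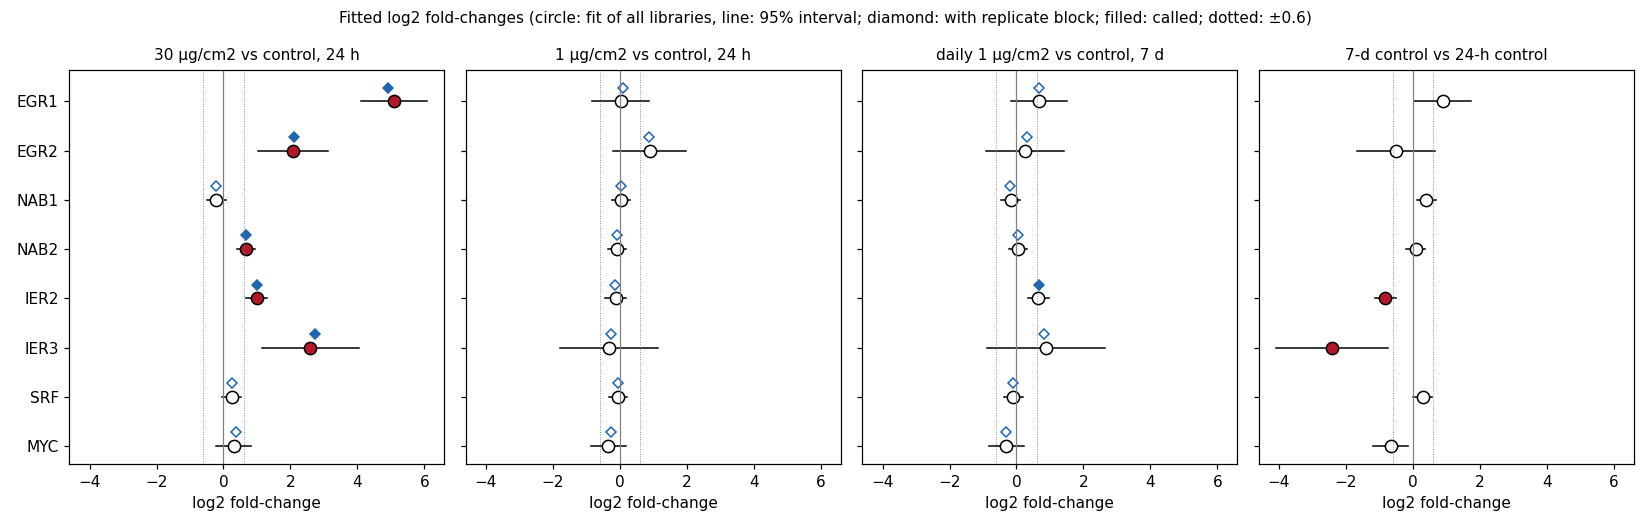
Fitted log2 fold-changes of the 8 tested genes (circles) with 95% intervals (lines) in 4 comparisons, and the values with the replicate block (diamonds), filled where called. At 30 µg/cm2 the filled circles are EGR1, EGR2, NAB2, IER2 and IER3, and none is filled at 1 µg/cm2 for 24 h or after daily exposure.

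After daily exposure to 1 µg/cm2, EGR1 and IER2 were higher than in 7-d controls in every library, by small amounts. EGR1 was at 45.4, 43.7 and 42.7 CPM in the 7-d controls and at 68.0, 63.1 and 78.6 CPM after daily exposure. IER2 was at 13.9, 13.0 and 12.3 CPM and at 19.99, 21.2 and 20.6 CPM. In both genes all 3 exposed libraries were above all 3 controls. The log2 fold-change was 0.67 for EGR1 (95% interval -0.17 to 1.51, adjusted p = 0.54) and 0.66 for IER2 (95% interval 0.34 to 0.97, adjusted p = 0.091), so that 0 of 8 members were called by edgeR, where 0.227% of tested genes were called. At an unadjusted p under 0.05 stood 1 of 8 (IER2), beside 11.9% of genes, and DESeq2 called 1 (IER2, adjusted p = 0.0027), beside 1.42% of genes. With the replicate block, IER2 was called (0.66, adjusted p = 0.011), where 4.39% of tested genes were called, and EGR1 was not (adjusted p = 0.17). Fitted on the 6 repeated-protocol libraries alone, both EGR1 (0.68, adjusted p = 0.00056) and IER2 (0.66, adjusted p = 0.00053) were called, beside 6.23% of genes.

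The other members moved less or less evenly under daily exposure. NAB1 was at 88.9, 91.4 and 90.9 CPM in the 7-d controls and 75.8, 78.0 and 86.0 CPM after exposure, and MYC was at 72.9, 71.8 and 82.8 CPM and at 60.6, 54.3 and 69.1 CPM. Both lay below their controls without overlap and neither was called, at log2 fold-changes of -0.18 and -0.31. Thus 2 of 8 members lay wholly above and 2 wholly below the controls (25.0% each), beside 21.3% and 21.6% of all tested genes, a share near that of genes at large. NAB2 was at 37.9, 38.2 and 36.4 CPM and at 41.5, 38.1 and 36.6 CPM. SRF was at 89.8, 81.3 and 83.9 CPM and at 82.9, 75.6 and 80.4 CPM, EGR2 had 2, 12 and 10 counts and 9, 11 and 11, and in all 3 genes the groups overlapped. IER3 was at 0.342, 0.386 and 0.314 CPM and at 0.356, 0.347 and 1.25 CPM, so its mean after exposure, 0.650 ± 0.517 CPM (SD, n = 3), rested on the library of experiment 3.

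The response to daily exposure was compared with each single response by the difference of their log2 fold-changes. Against the single dose of 1 µg/cm2, 0 of 8 members and 0 of all tested genes (0%) were called by edgeR, 1 member at an unadjusted p under 0.05 (IER2, 0.78, adjusted p = 0.41), beside 7.07% of genes, and 1 by DESeq2 (IER2, adjusted p = 0.0498), beside 0.426% of genes. Without the 24-h libraries of experiment 2, the difference was 0.79 for EGR1 (adjusted p = 0.00084) and 0.91 for IER2 (adjusted p = 0.00024), both called in a fit that called 9.84% of genes. Against the single dose of 30 µg/cm2, the response of EGR1 was smaller, at a difference of -4.42 on the log2 scale (SE 0.58, 95% interval -5.65 to -3.18, adjusted p = 0.0020, same edgeR test). It was the 1 of 8 members called, where 1.82% of tested genes were called. With the replicate block, 4 of 8 were called, where 14.6% of tested genes were called. These were EGR1 (-4.26), EGR2 (-1.80, adjusted p = 0.042), MYC (-0.68, adjusted p = 0.043) and NAB2 (-0.63, adjusted p = 0.020). In that fit EGR1, EGR2 and NAB2 had a smaller rise after daily exposure than at 30 µg/cm2. MYC was at -0.31 after daily exposure and at 0.37 at 30 µg/cm2, opposite in sign, and neither value was called. Leaving out the 30 µg/cm2 library of experiment 2 added NAB2 (-0.73, adjusted p = 0.016) in a fit that called 8.07% of genes. Without all 24-h libraries of experiment 2, EGR1 (-4.67), EGR2 (-1.96) and NAB2 (-0.69) were called, beside 21.6% of genes. Dose, number of doses, plating density and time differ together between these protocols and cannot be told apart.

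Levels without particles also differed between the protocols. Against the 24-h controls, the 7-d controls had less IER2, at -0.83 on the log2 scale (SE 0.15, adjusted p = 0.00096), and less IER3, at -2.42 (SE 0.78, adjusted p = 0.032, both from edgeR's quasi-likelihood test). IER2 did not overlap between the controls, while the IER3 value of 24-h control 2 (0.188 CPM) lay below all 7-d controls. These were 2 of 8 members called, both lower, where 21.9% of tested genes were called and 10.8% called lower, a share near that of genes at large. EGR1 was higher in all 7-d controls (42.7 to 45.4 against 17.6 to 27.9 CPM), at 0.89 (adjusted p = 0.11), and was called without the 24-h libraries of experiment 2 (0.70, adjusted p = 8.0e-06), in a fit that called 31% of genes. MYC was at -0.66 (adjusted p = 0.056) and, without those libraries, at -0.98 (adjusted p = 2.1e-07), and leaving out 24-h control 2 alone gave the same value (adjusted p = 0.00047), beside 22.5% of genes called. NAB1 was higher by 0.40 (adjusted p = 0.030), under the fold threshold, and SRF by 0.29 (adjusted p = 0.10), not called. In the 7-d controls 3 of 8 members (EGR1, NAB1 and SRF, 37.5%) lay wholly above the 24-h controls and 1 (IER2, 12.5%) wholly below. Of all tested genes, 27.6% lay wholly above and 24.7% wholly below. Each of the 6 control libraries was left out in turn, and all but 24-h control 2 ended the call of IER3, with adjusted p between 0.085 and 0.0998. The protocols' replicate numbers were taken to mark different experiments, so no block was fitted here, and protocol and batch cannot be told apart.

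The order of the members by level per length changed with the dose. In the 24-h controls MYC led (40.0 CPM per kilobase), before SRF (16.5), NAB1 (14.0), NAB2 (11.8), IER2 (7.59), EGR1 (7.54), IER3 (1.35), EGR2 (0.101), EGR3 (0.0171) and EGR4, with the ranges of SRF and NAB1, and of IER2 and EGR1, overlapping. At 30 µg/cm2, EGR1 led (256 CPM per kilobase, 73.3 to 354) before MYC (49.5, 40.4 to 55.0). After daily exposure EGR1 (22.3) overlapped MYC (20.4), and MYC overlapped SRF (19.0), while EGR1 lay above SRF in every library. EGR1 in the 7-d controls (14.0) stood below MYC (25.3), SRF (20.2) and NAB1 (18.5) with no overlap. Over the 15 libraries, the log2 levels of EGR1 and NAB2 ran together (Pearson's r of 0.95), as did those of IER3 and MYC (0.89) and of IER3 and EGR2 (0.86), while NAB1 and IER2 ran against each other (-0.83). These describe 15 points that share doses, protocols and experiments.

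Of 34 other immediate early genes, all of them tested, 15 were called at 30 µg/cm2 against control, 13 higher and 2 lower. The median log2 fold-change of the 34 was 0.75. In that comparison 8.07% of all tested genes were called and 3.82% called higher. The largest called in the list were DUSP2 (5.78, SE 0.84, adjusted p = 0.00063), from 0.357 ± 0.228 to 20.9 ± 15.9 CPM (SD, n = 3), and ARC (2.59, adjusted p = 0.0044). DUSP2 and DUSP5 (2.23, adjusted p = 0.0077) are phosphatases of MAP kinases, and PPP1R15A (2.44, adjusted p = 4.3e-05, 61.7 ± 1.73 to 336 ± 131 CPM, SD, n = 3) recovers translation after stress. FOSL1 (2.12, adjusted p = 0.0040) is a FOS family factor and MAFF (2.09, adjusted p = 0.00038) a small MAF factor. The 2 lower genes, named after their values were seen, were DUSP1 and PLK2. At 1 µg/cm2 and after daily exposure, 0 of the 34 were called by edgeR, beside 0.0625% and 0.227% of all genes. At an unadjusted p under 0.05 stood 5 in each, beside 3.03% of all genes at 1 µg/cm2 and 11.9% after daily exposure. With the block, 2 of 34 were called after daily exposure, near the 4.39% of all genes in that fit. Between 30 and 1 µg/cm2, 16 were called, all higher, where 7.84% of all genes were called and 3.62% called higher.

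The genes of the route upstream were few, so that at the 8.07% of all genes called a count of 0 is not set apart. Of 13 genes of the ERK cascade (RAS, RAF, MEK, ERK and RSK genes), 0 were called by edgeR at 30 µg/cm2, with 2 at an unadjusted p under 0.05, beside 23.6% of all genes, and a median of -0.03. Of 5 tested SRF cofactors, 0 were called by edgeR, with 1 at an unadjusted p under 0.05. With the block 1 (ELK4) was called, in a fit that called 15.2% of all genes. Of 15 tested actin cytoskeleton genes that SRF drives, ACTA2 (smooth muscle actin) rose by 1.23 (adjusted p = 0.00034), and CNN2 (-0.72, adjusted p = 0.0040) and TPM1 (-0.68, adjusted p = 0.0016) fell. Their median was -0.11.

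Of 13 tested genes known as EGR targets, 4 were called at 30 µg/cm2, where 8.07% of all tested genes were called. VEGFA, the vascular growth factor, rose from 54.6 ± 1.65 to 164 ± 52.2 CPM (SD, n = 3; 1.59, SE 0.20, adjusted p = 0.00022). PDGFA (1.30, adjusted p = 0.012) and the adhesion molecule ICAM1 (1.23, adjusted p = 0.00060) rose and PDGFB (-0.96, adjusted p = 0.012) fell. The median of the 13 was 0.14. Between 30 and 1 µg/cm2, 6 were called, 5 higher and 1 lower, where 7.84% of all tested genes were called. Among the higher were F3, the starter of coagulation (1.46, adjusted p = 0.048), and FGF2 (0.96, adjusted p = 0.044).

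Around MYC, 2 of 10 tested partners and relatives were called at 30 µg/cm2, the antagonists MXD1 (1.40, adjusted p = 0.0091) higher and MXD4 (-0.94, adjusted p = 0.015) lower. In that comparison 8.07% of all tested genes were called. Of 14 known MYC targets, LDHA (-1.24, adjusted p = 0.0020), which makes lactate, and PTMA (-0.79, adjusted p = 0.0084) were called, both lower. Between the controls, 9 of the 14 targets were called lower in the 7-d controls, with a median of -0.93 beside 0.02 over all tested genes. Examples were the nucleolar NCL (-0.99, adjusted p = 0.0013) and FBL (-1.17, adjusted p = 0.0024) and the cyclin gene CCND2 (-2.67, adjusted p = 0.0021). MYC itself was at the edge of the threshold there (adjusted p = 0.056) and was called lower with other settings. Of the actin genes, 9 of 15 were called between the controls, 8 of them lower, beside 21.9% of all genes called and 10.8% called lower.

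**Figure D4:**
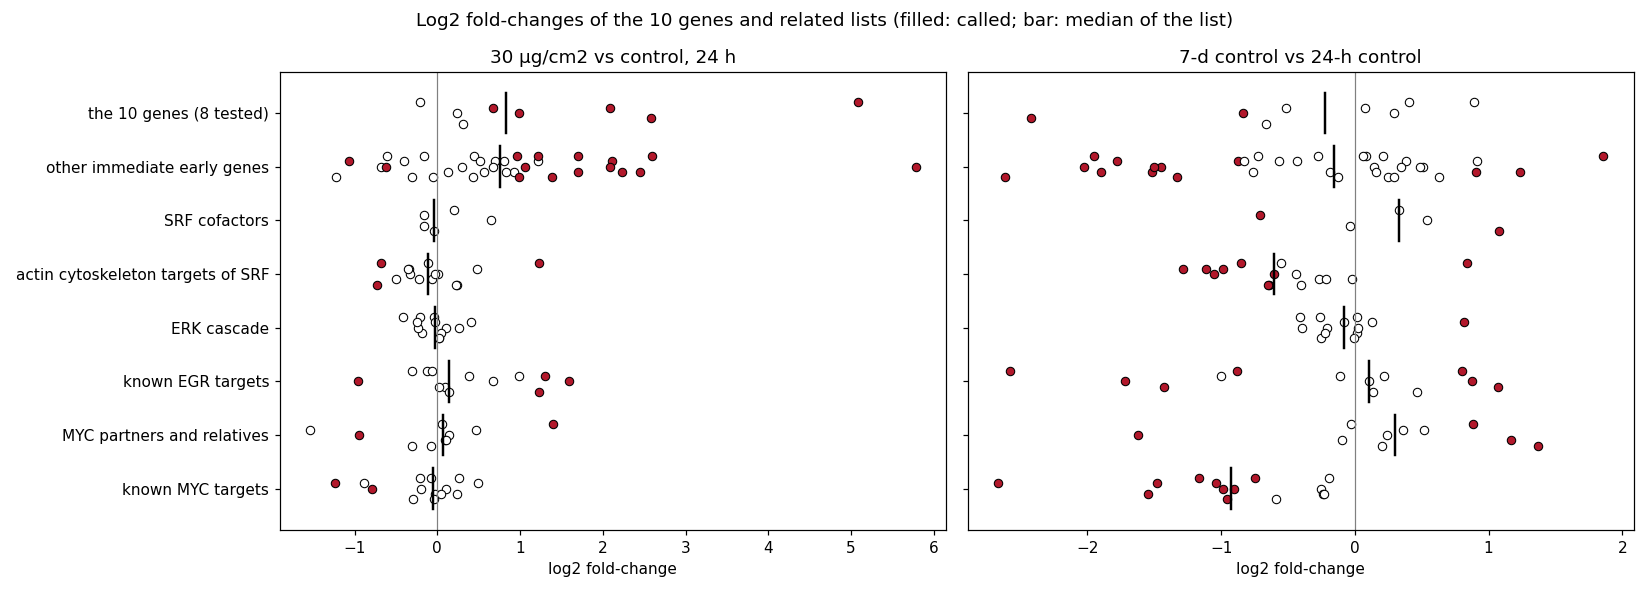
Log2 fold-changes of the 10 genes (8 tested) and of 7 related lists at 30 µg/cm2 for 24 h (left) and between the controls of both protocols (right), filled where called, with a bar at each list's median. On the left, the other immediate early genes reach 5.78 (DUSP2) and no gene of the ERK cascade is filled. On the right, 9 filled known MYC targets lie below 0.

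The genes whose log2 levels were most like those of 3 members over the 15 libraries were listed among 13788 genes, as a description that shares every library and dose. For EGR1 these were UPP1 (Pearson's r of 0.990), BCAT1 (0.973), CSRNP1 (0.967), DUSP2 (0.966) and RHBDD1 (0.965). For IER3 they were PVR (0.977), LINC02454 (0.976), FOSL1 (0.964), GUF1 (0.963) and PDCD11 (0.963). For MYC they were DNER (0.955), PLPBP (0.954), F3 (0.952), WDR12 (0.95) and TFRC (0.946). CSRNP1 and DUSP2 are among the other immediate early genes above, as FOSL1 is, and F3 is among the known EGR targets.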

How the data were processed

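The authors aligned single-end poly-A reads of 50 bases with STAR and deposited raw read counts per gene from featureCounts. The study's methods and the coordinates of the table give GRCh38, while the submitters' processing notes name hg19. The annotation and the strand setting are not given in the sources used here. The labels give replicate numbers only, and these were taken to mark experiments and so to pair libraries. Deviations of same-numbered libraries correlated at 0.201 to 0.721 at 24 h and 0.121 to 0.181 at 7 d. Those of differently numbered libraries correlated at -0.683 to 0.453 at 24 h, overlapping the former, and at -0.127 to -0.0341 at 7 d. The deviations were taken from group means and cancel within a group. The lower values of differently numbered libraries are therefore tied to those of same-numbered ones and are no separate evidence of pairing.

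Symbols were matched for 57437 of 58219 genes. Counts were fitted in R 4.3.3 with edgeR 4.0.16 (filterByExpr, TMM, quasi-likelihood test in its earlier mode, a mean for each group, all 15 libraries), with a call needing an adjusted p (Benjamini-Hochberg) under 0.05 and a log2 fold-change of at least 0.6 in size. SEs are the fold-change over the square root of F. The fit was tested on simulated data. DESeq2 1.42.0 was an alternative. Promoters were read with Python. The exon lengths that the authors deposited as another value beside the counts give CPM per kilobase. From each list, up to 6 called genes with the largest change were named. The members and lists were chosen with earlier results of these data known.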

Additional observations from a re-analysis of the deposited data

Results flagged for a closer look

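The difference between the EGR1 response to daily exposure at 1 µg/cm2 and that to a single 30 µg/cm2 was -4.42 on the log2 scale in edgeR's test of that difference, in a comparison where dose and protocol change together.

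The others lie in genes left out of the tests for low counts. EGR3 had 10 counts at 30 µg/cm2 in experiment 1, above all 24-h controls, and 11 and 13 counts after daily exposure in experiments 1 and 3, above all 7-d controls, while the remaining libraries of those groups did not exceed them. EGR4 had 5 counts at 30 µg/cm2 in experiment 1, above its controls and the floor of 3 counts. Groups of 3 libraries were not searched for outlying samples.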

How the results depend on the processing

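Counts of members called that moved by over 1.5 times were these. Fitting only the groups compared gave 2 at 30 µg/cm2 against control, 1 at 30 against 1 µg/cm2 and 2 after daily exposure. The replicate block gave 1 after daily exposure and 4 for the daily response minus that at 30 µg/cm2, with 5, 0 and 6 in the 24-h comparisons and 0 for the daily response minus that at 1 µg/cm2. DESeq2 gave 1 after daily exposure, 1 for the daily response minus that at 1 µg/cm2 and 2 for that minus the response at 30 µg/cm2. With no filter on low counts, 4 were called between the controls, with EGR1 and MYC added. Smaller shifts were MYC added between the controls by RLE scaling, a filter at 1 CPM and DESeq2 (3 called each), EGR1 added there by fitting the controls alone, and MYC added at 30 against 1 µg/cm2 with no filter (5 called). Leaving out the 24-h libraries of experiment 2, which earlier results of these data had shown to stand apart, gave 2 and 3 for these differences of responses, 4 between the controls and 6 at 30 against 1 µg/cm2. Leaving out single libraries gave 2 to 5 at 30 µg/cm2 against control, 3 to 5 at 30 against 1 µg/cm2, 1 to 2 for the daily response minus that at 30 µg/cm2, 1 to 3 between the controls and 0 to 0 in the other comparisons. The causes were not tested.

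Reversals were found in uncalled values only. The replicate block gave -0.034 for MYC in the daily response minus that at 1 µg/cm2. Without experiment 2 at 24 h, EGR1 at 1 µg/cm2 was at -0.12, SRF in the daily response minus that at 1 µg/cm2 at 0.031 and NAB1 in that minus the response at 30 µg/cm2 at -0.052. Leaving out single libraries, values at 1 µg/cm2 ran from -0.13 to 0.16 for EGR1, -0.042 to 0.13 for NAB1, -0.83 to 0.074 for IER3 and -0.18 to 0.020 for SRF. After daily exposure they ran from -0.14 to 0.65 for EGR2 and -0.0063 to 0.085 for NAB2. The daily response minus that at 1 µg/cm2 ran from -0.11 to 0.091 for SRF and -0.17 to 0.33 for MYC, and that minus the response at 30 µg/cm2 from -0.078 to 0.12 for NAB1.

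Low counts limit EGR2, EGR3, EGR4 and, in experiment 2 and at 7 d, IER3. With 3 libraries a group, the spread of experiment 2 enters every 24-h result. The 6 repeated-protocol libraries share the spread of the 24-h libraries in the joint fit.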
